A study of Zea mays with 4 samples.

Results

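The SWEET genes encode membrane proteins that let sugars pass down a concentration gradient, and 5 of them were followed here in maize: sweet4c (Zm00001d015912), sweet13a (Zm00001d023677), sweet13b (Zm00001d023673), sweet13c (Zm00001d041067) and sweet15b (Zm00001d016590). They were picked by gene identifier, 5 of the 39179 genes of the FPKM table, where FPKM stands for fragments scaled to transcript length and library size. The table was made on the B73 RefGen_v4 genome, and all 5 are listed in it. Total RNA came from the female inflorescence (FI), bagged before silk emergence, and from the uppermost stem internode (TI). Both tissues were taken from the same genotype, the Puma hybrid, grown in pots in a greenhouse and collected at 60 DAS (days after sowing), before pollination. Each tissue had 2 libraries, which the study calls biological replicates, and whether plants were pooled is not given in the sources used here.

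SWEET proteins work as uniporters, so the direction of flow follows the sugar gradient and no energy is spent. Members of clade III, such as SWEET13 and SWEET15, are known mainly as sucrose exporters. They release sucrose into the cell wall space, from where SUT proteins load it into the phloem. Members of clade II, such as SWEET4, are known mainly for hexoses. In maize leaves the sweet13 copies are needed for phloem loading, and in maize kernels sweet4c carries hexoses through the basal transfer layer into the endosperm. SWEET15 is known from Arabidopsis as a gene of senescing leaves and developing seeds.

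The depth of a library and the mix of cells in it bear on each value below. Whole fragments were recovered from the FPKM values as the smallest numbers that fit, and the libraries held between 2373386 and 3876892 of them. In bulk tissue, fewer cells of a type and less RNA per cell cannot be told apart. Of 20 symbols used as markers of inflorescence meristems and flowers, 13 had rows in the count table. Their summed level was 440 and 376 CPM (counts scaled to a common library size) in the FI libraries, and 322 and 343 in the TI libraries. The order of the sums depends on which markers are included, since the list is split within itself. The floral MADS-box gene zag1 had 228 and 121 counts in FI, 2 in TI replicate 1 and 42 in TI replicate 2. Another floral MADS-box gene, bde1, had 143 and 131 counts in FI, 0 in TI replicate 1 and 48 in TI replicate 2. At 0 were 5 of the 13 markers in TI replicate 1 and 2 in TI replicate 2, and 1 in each FI library. The meristem gene kn1 went the other way, with 20 and 12 counts in FI, against 44 and 21 in TI, which in CPM was 345% and 206% of its FI mean. zag1 and bde1 were thus counted in TI replicate 2, which is labelled an internode, and whether it held floral tissue was not tested. The log2FC of sweet13a, sweet13b, sweet13c and sweet15b is given with and without this library. Markers of photosynthetic cells summed to 343 and 239 CPM in FI and to 753 and 383 CPM in TI. Of the 5 tested gene models of this list, 4 lay above the FI mean in both TI libraries. A model matched to pep1 (GRMZM5G899080) lay below it, at 5.80% and 21.7%. The markers of secondary walls, found in stem vascular tissue, summed to 57.6 and 57.9 CPM in FI and to 33.6 and 46.0 CPM in TI. These sums, mostly cesa10 (52.2 and 51.2 CPM in FI, 24.2 and 41.2 in TI), did not set the stem libraries above the inflorescence. In bk2 the order differed, with 4.52 and 4.34 CPM in FI, against 9.35 and 4.12 in TI.

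In FI, sweet13a had the highest FPKM of the 5 genes, followed by sweet15b, sweet13c, sweet13b and sweet4c. In TI replicate 1 the order was sweet13a, sweet13c, sweet13b, sweet4c and sweet15b. The counting intervals of sweet13c and sweet13b overlapped there, as did those of sweet4c (1 fragment) and sweet15b (0 fragments). In TI replicate 2 it was sweet13a, sweet13c, sweet15b, sweet13b and sweet4c, and the counting intervals of the middle 3 genes overlapped. The 5 genes summed to 121 and 107 FPKM in FI and to 56.9 and 61.2 FPKM in TI. The sum was thus higher in each FI library than in either TI library. The levels of sweet13a and sweet15b lay close together in FI, with a gap smaller than the spread between the sweet13a libraries, and those of sweet13c and sweet13b lay closer in TI than the libraries of either gene did.

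**Figure D1:**
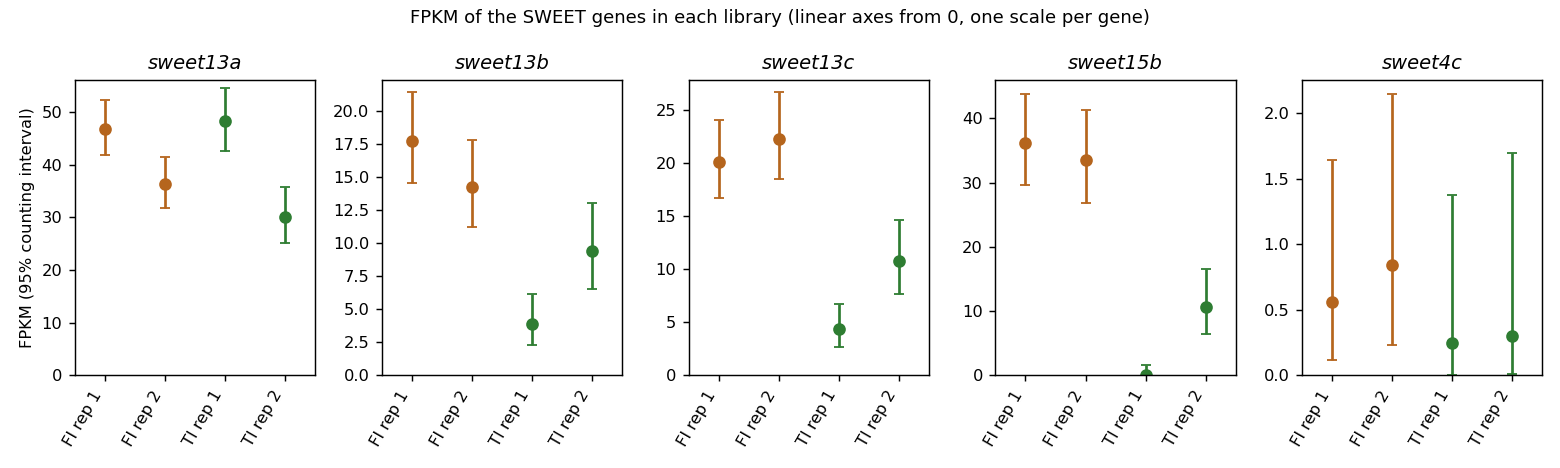
FPKM of each SWEET gene in the 2 FI and the 2 TI libraries, with a linear axis from 0 of its own for each gene. Points are single libraries and bars are exact Poisson 95% intervals of the fragments, which cover counting error only; sweet13b, sweet13c and sweet15b lay higher in both FI libraries, whereas sweet13a overlapped between tissues and sweet4c rested on 1 to 4 fragments per library.

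The FI libraries held sweet13a at 46.9 and 36.3 FPKM, and the TI libraries at 48.4 and 30.1 FPKM. The tissues overlapped, since the highest and the lowest value both came from TI. On average sweet13a reached 41.6 ± 7.45 FPKM in FI and 39.2 ± 12.9 FPKM in TI (SD, n = 2 each). These values rest on 326 and 226 fragments in FI and on 256 and 129 in TI, the deepest coverage among the 5 genes. In each library the gene ranked high, at place 1529 and 1964 of 39179 in FI and at 1391 and 2642 in TI. On the log2(FPKM + 1) scale, limma gave it a log2FC of FI over TI of 0.11, with a standard error of 0.33, a 95% interval from −0.77 to 0.99 and an FDR of 0.860 (the p-value adjusted over all genes tested). No difference between the tissues was detected for sweet13a, and the interval covers changes in either direction.

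For sweet13b the FPKM was 17.7 and 14.3 in FI, against 3.92 in TI replicate 1 and 9.40 in TI replicate 2. These tissues did not overlap for sweet13b, and the TI libraries differed more than the FI libraries. The FI mean was 2.40-fold the TI mean, with an SD over 2 libraries of 2.45 FPKM in FI and 3.88 FPKM in TI. The log2FC by limma was 1.24 on the log2(FPKM + 1) scale, with a standard error of 0.43 and an FDR of 0.275, so the difference did not pass the threshold of an FDR under 0.05 over all genes.

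The pattern of sweet13c was close to that of sweet13b. Its FPKM was 20.1 and 22.3 in FI, against 4.37 in TI replicate 1 and 10.8 in TI replicate 2. Again the tissues did not overlap, and TI replicate 2 lay 2.47-fold above TI replicate 1. On average sweet13c reached 21.2 ± 1.55 FPKM in FI and 7.57 ± 4.53 FPKM in TI (SD, n = 2 each). On the same scale limma gave sweet13c a log2FC of 1.48, with a standard error of 0.44 and an FDR of 0.259. In fragments, sweet13c had 121 and 120 in the FI libraries, against 20 and 40 in the TI libraries, while sweet13b had 107 and 77 in the FI libraries, against 18 and 35 in the TI libraries. The TI values of both genes therefore have wide counting intervals, from 2.32 to 6.19 FPKM for sweet13b and from 2.67 to 6.74 FPKM for sweet13c in TI replicate 1.

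No difference in the proportions of the sweet13 copies could be shown with 2 libraries a tissue, and TI replicate 1 stood apart from the other 3 libraries. sweet13a made up 55.3% and 49.8% of the summed FPKM of the 3 copies in FI, against 85.4% in TI replicate 1 and 59.9% in the other TI library, which is nearer to FI. The sum itself was 84.7 and 72.9 FPKM in FI, against 56.6 and 50.2 FPKM in TI, so that sweet13a held a larger share of a smaller sum in TI. The FPKM ratio of sweet13a to sweet13b was 2.65 and 2.55 in FI, against 12.4 in TI replicate 1 and 3.20 in TI replicate 2. On the log2(FPKM + 1) scale the difference of this ratio, FI minus TI, was −1.13 (exact permutation test, two-sided, p = 0.333, adjusted p = 0.444 over 4 ratios), and 0.333 is the smallest p that 2 libraries against 2 allow. The ratio of sweet13a to sweet13c was 2.33 and 1.63 in FI, against 11.1 and 2.79 in TI, with the same p by this exact test. The ratio of sweet13b to sweet13c overlapped between the tissues, with 0.881 and 0.639 in FI, against 0.897 and 0.872 in TI (exact permutation test, p = 0.667). Reads of closely similar copies can be split among them, and how such reads were assigned is not given in the sources used here, so the shares are uncertain to that extent.

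**Figure D2:**
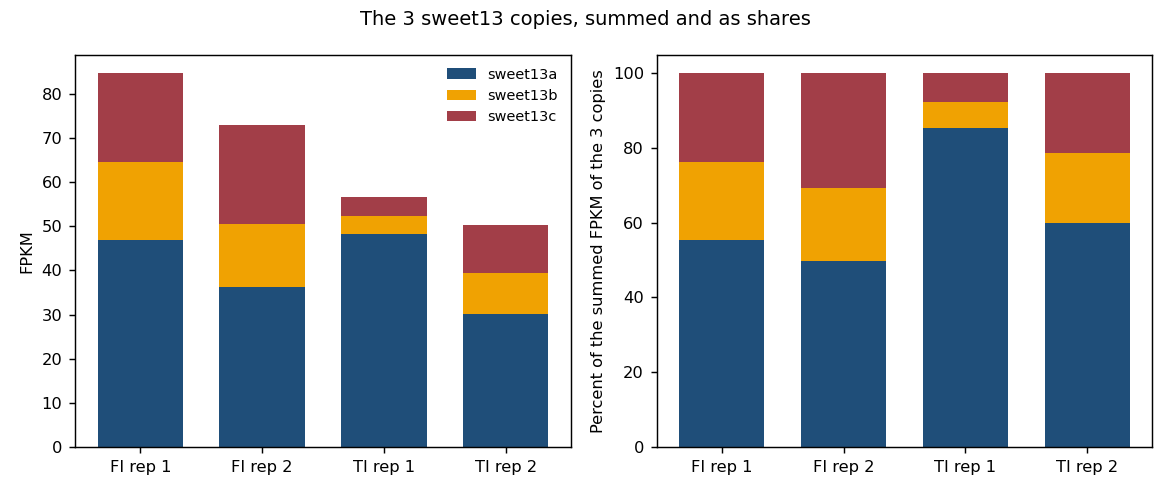
The 3 sweet13 copies in each library as summed FPKM (left) and as percent of that sum (right), FI libraries before TI libraries. sweet13a took 55.3% and 49.8% of the sum in FI, against 85.4% and 59.9% in TI.

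sweet15b, which is in the study's list of genes called on these same libraries, showed the widest difference of the 5. It stood at 36.2 and 33.5 FPKM in FI, while TI replicate 1 listed it at 0 and TI replicate 2 at 10.6 FPKM. It ranked at place 2170 and 2224 of 39179 in FI and at 8348 in TI replicate 2. The FI libraries were close, with a mean of 34.9 ± 1.88 (SD, n = 2), and the TI libraries differed by more than those of 99.3% of the genes tested. No fragment of sweet15b was recovered in TI replicate 1, where 3 fragments would have been 1.36 FPKM, or 3.90% of the FI mean. The interval plotted for this library is two-sided and reaches 1.67 FPKM. The FI mean was 25.7-fold the level of 3 fragments in TI replicate 1, and a smaller fold of the interval's upper end. It was 3.28-fold the level in TI replicate 2. The log2FC by limma was 3.39, with a standard error of 1.23 and an FDR of 0.276, and 48 of the 19531 genes tested had a larger log2FC in the direction of FI. The count table, made separately on version 3 gene models, gave 18 and 28 counts of sweet15b in FI, 0 in TI replicate 1 and 7 in TI replicate 2. On these counts the quasi-likelihood test of edgeR gave a log2FC of 2.14, with a standard error of 1.14 and an FDR of 0.390. Both tables thus place TI replicate 1 at 0 and TI replicate 2 between it and FI. Scaled to library size, the counts were 7.40 and 13.5 CPM in FI and 0 and 4.81 CPM in TI. TI replicate 2 was then at 46.0% of the FI mean, against 30.5% on FPKM, so the contrast was weaker on counts. The other members have no counts here, because no source used here pairs their identifiers with version 3 names.

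sweet4c was near the limit of detection in both tissues. Its FPKM reached 0.563 and 0.839 in the FI libraries, against 0.246 and 0.304 in the TI libraries. By the recovery, these values stand for 3 and 4 fragments in FI and for 1 fragment in each TI library. Its mean was below an FPKM of 1, the filter on low values, so it was not among the genes tested. The ratio of FI to TI, per fragment sequenced, was 2.55 with an exact 95% interval from 0.486 to 25.2, which covers counting error only. Both FI libraries were above both TI libraries here too, but at this depth no difference was detectable. sweet4c is known from the fertilized kernel, and the ears were collected before pollination. Of 14 symbols used as markers of the endosperm and its transfer layer, 5 had counts. They summed to 167 and 208 CPM in FI and to 75.9 and 137 CPM in TI, most of it from the starch branching enzyme gene ae1, with 360 and 376 counts in FI, against 92 and 168 in TI. The list was split within itself. Of its 3 tested gene models, ae1 lay below the FI mean in both TI libraries. In CPM, sh2 was at 146% and 163% of its FI mean in the TI libraries, and bt2 at 138% and 70.0%. mrp1, a regulator of the basal transfer layer, had 1 count in each FI library, and TI had 0.

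No overlap, with FI above TI, was seen in 3 of the 4 members that passed the filter, sweet13b, sweet13c and sweet15b, and the same order held in 33% of the 19531 genes tested (27.5% had the reverse order). An unadjusted p under 0.05 with higher FPKM in FI was found for the same 3 members, against 8.8% of the genes tested (9.25% with higher FPKM in TI). With an FDR under 0.05 there were 0 of 4 members, and 0% of all genes by limma, while 3524 genes had an unadjusted p under 0.05. On fragments the quasi-likelihood test of edgeR also called 0 genes and gave 3123 an unadjusted p under 0.05, whereas DESeq2 called 452 genes and the exact test of edgeR 903. By the quasi-likelihood test the unadjusted p was under 0.05 for sweet13b and sweet13c with FI higher, against 6.12% of genes (11.2% with TI higher), and above it for sweet15b. On counts the quasi-likelihood test called 0% of 15479 genes, with 2443 at an unadjusted p under 0.05. The 4 members were called by neither DESeq2 nor the exact test, and their lowest FDR on the fragments of all 4 libraries was 0.102, for sweet13c by the exact test. The p-values compare the difference between the tissues with the spread of the libraries within each tissue. That spread is estimated partly from the other genes. The median log2FC of the genes tested on FPKM was 0.06.

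**Figure D3:**
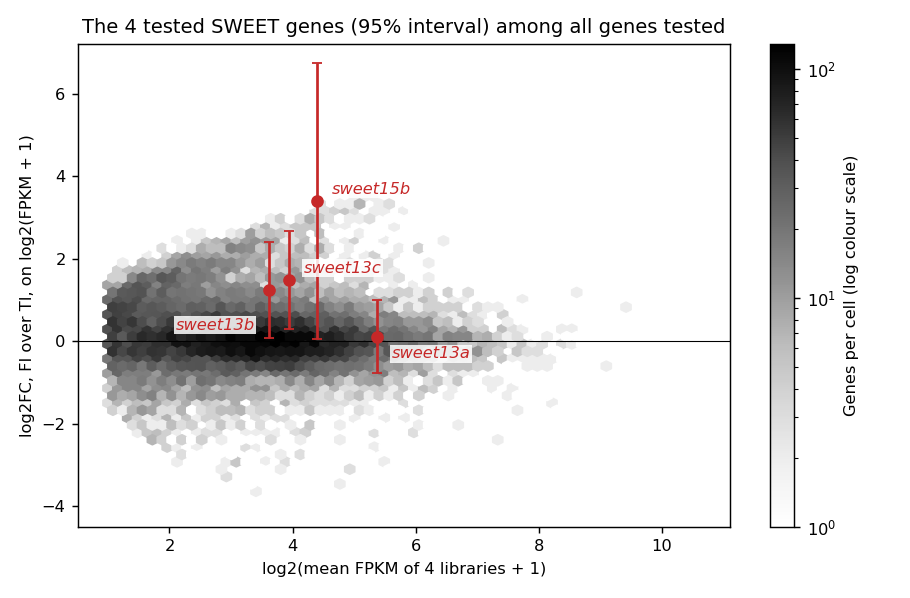
log2FC of FI over TI on the log2(FPKM + 1) scale against the mean level of all 19531 genes tested (grey, darker where genes are denser). Red points are the 4 tested SWEET genes with 95% intervals from limma; sweet13a sits at 0.11 near the centre of the cloud and sweet15b at 3.39 near its upper edge, with an interval from 0.05 to 6.73.

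The differences moved more with the TI library left out than with the FI library left out. Without FI replicate 1 and without FI replicate 2, the log2FC was 1.09 and 1.39 for sweet13b, 1.55 and 1.41 for sweet13c, 3.34 and 3.45 for sweet15b, and −0.07 and 0.29 for sweet13a. Without TI replicate 2 the log2FC was 1.78 for sweet13b, 2.05 for sweet13c and 5.16 for sweet15b, and these 3 genes then passed the threshold (FDR = 0.0139, 0.00832 and 0.00353 by limma). In that fit 25.5% of 19623 genes passed, and 17.5% of the 19623 passed with FI higher. Without TI replicate 1 the log2FC was 0.70 for sweet13b, 0.91 for sweet13c and 1.62 for sweet15b, with FDR of 0.275, 0.181 and 0.118 by limma, and 0.041% of genes passed. The lone TI library is assumed in these fits to vary like the FI libraries. All 3 genes remained higher in FI in both fits, which was fixed in advance because their tissues did not overlap. The log2FC of sweet13a changed sign between these fits, at −0.22 when TI replicate 2 was left out and 0.44 when TI replicate 1 was, and neither passed.

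TI replicate 2 lay between TI replicate 1 and FI in sweet13b, sweet13c and sweet15b. Expressed in percent of the FI mean, sweet13b was at 24.5% in TI replicate 1 and 58.8% in TI replicate 2, and sweet13c at 20.6% and 50.8%. sweet15b was at 0% and 30.5%. Among the 11 tested inflorescence markers, 8 had the same order, with TI replicate 1 lowest and TI replicate 2 below the FI mean, and 3 (kn1, td1 and lg3) were above the FI mean in both TI libraries. Of the 8, zag1 was at 1.45% and 37.9% of its FI mean in CPM and fea2 at 67.5% and 87.0%. Of the way from TI replicate 1 to the FI mean, TI replicate 2 had covered 45.4% in sweet13b, 38.1% in sweet13c and 30.5% in sweet15b. Over the whole table, 3817 tested genes had FI above TI and an FI mean at least 2 times TI replicate 1. Of these, 96.6% had TI replicate 2 above TI replicate 1. In those genes TI replicate 2 had covered a median of 47.3% of the way (quartiles 35.4% and 59.0%). The genes were picked by a low TI replicate 1, with no like condition on TI replicate 2. That choice by itself favours this order, so the share does not show that the order was general. Whether floral RNA contributed to the TI replicate 2 values of the SWEET genes was not tested.

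**Figure D4:**
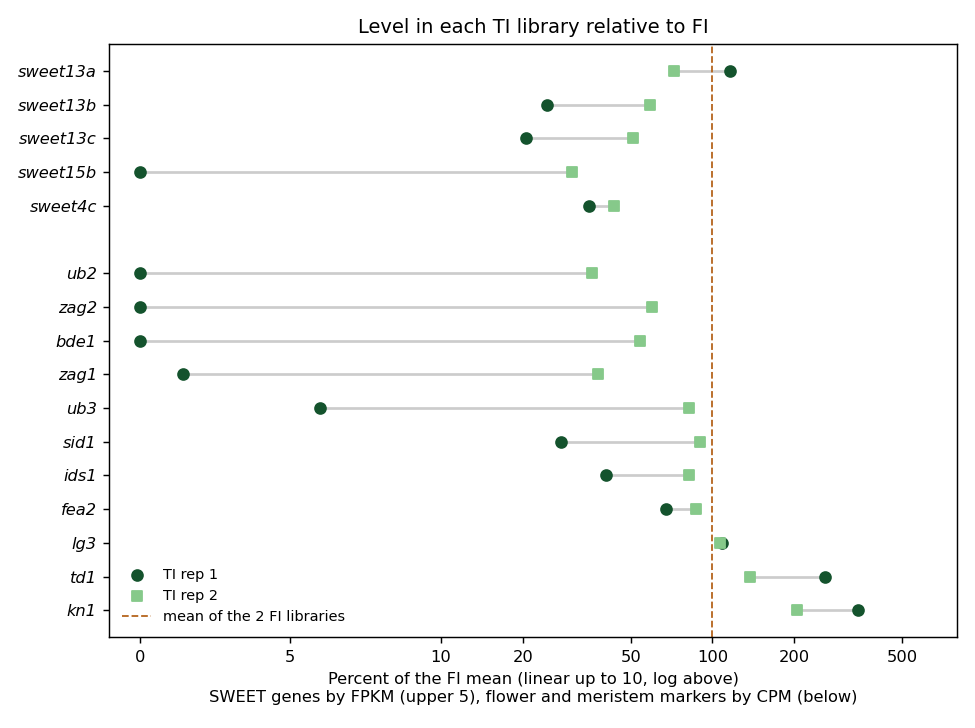
Level of the SWEET genes (FPKM, upper rows) and of the 11 tested inflorescence markers (CPM, lower rows) in each TI library in percent of the FI mean, on an axis linear up to 10 and logarithmic above. Dark circles are TI replicate 1 and light squares TI replicate 2; sweet15b stands at 0% and 30.5%, and bde1 at 0% and 54.0%, while kn1 and td1 lie above the FI mean in both.

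The genes nearest to each member over the 4 libraries were sought among the 259 genes that the study's supplementary tables name, by Euclidean distance on the log2(FPKM + 1) scale. Most of these names come from a list of genes that the study called different in these same libraries, so the likeness is a description. Nearest to sweet15b was gl2, a gene of leaf wax deposition, at a distance of 0.34. This gene was at 34.9 and 29.9 FPKM in FI, and in TI the first replicate had 0.228 and the second 10.4. The expansin gene expa3 followed at 0.50 and meg4 at 1.07, and both were listed at 0 in TI replicate 1. Only 2 genes of the whole table lay closer to sweet15b than gl2 did. For both sweet13b and sweet13c the nearest name was ZmTHX12, a transcription factor gene, at 0.37 and 0.35. It had 19.2 and 18.5 FPKM in FI, against 3.84 and 9.47 in TI. IDP507 was also among the nearest of both, at 0.71 and 0.62, as were agpl3, an ADP-glucose pyrophosphorylase gene, for sweet13b at 0.85 and mtl3 for sweet13c at 0.61. sweet13b and sweet13c themselves lay 0.67 apart, with 169 genes closer to sweet13b than sweet13c was. For sweet13a the nearest names were agplemzm, Sut2 and hagtf39 at 1.16, 1.19 and 1.41, and with 1254 genes closer than the first of them, none was near. Its distance was 4.13 to sweet13b and 3.75 to sweet13c.

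Other genes of sugar transport and sucrose use that could be named included some with higher and some with lower levels in FI. The study also names Sweet4a and Sweet4b, but no source used here pairs either with an identifier, so they are not analysed here. No other SWEET gene and no numbered tonoplast sugar transporter was found by symbol in the tables searched. Sucrose transporters, hexose transporters, cell wall invertases and sucrose synthases came to 14 gene models, of which 13 had counts and 7 had FPKM under a version 4 identifier. Of the 10 tested on counts, 2 had an unadjusted p under 0.05 with higher counts in FI and 3 with higher counts in TI, against 6.11% and 9.67% of all genes tested, and 0 passed an FDR of 0.05 (quasi-likelihood test of edgeR). Of the 7 tested on FPKM, Sut5 and Sus5 had an unadjusted p under 0.05 with higher FPKM in FI, and Sut1, STP1949 and HEX6 with higher FPKM in TI, against 8.8% and 9.25% of all genes tested (0 with an FDR under 0.05 by limma). Sut1, Sus5, STP1949 and HEX6 are in the study's list drawn from these libraries, as is sweet15b, so their place on it is not independent evidence. By qRT-PCR on independent extractions, the study also reported Sut1 higher in TI and Sus5 higher in FI. Sut1, which loads sucrose into the phloem, had 86.5 and 84.3 FPKM in FI, against 434 and 185 in TI, the reverse of the order in sweet13b and sweet13c. Its version 3 model had 0 counts in FI replicates 1 and 2, against 1 in either TI library, so the tables differ for Sut1 and its FPKM order could not be checked on counts. The hexose transporter gene STP1949 had 1.60 and 2.27 FPKM in FI and 10.7 and 9.35 in TI, so that its TI libraries, unlike those of sweet15b, lay close together. HEX6 had 0.134 and 0 FPKM in FI, against 2.82 and 2.83 in TI. Among the genes higher in FI, Sut5 had 4.48 and 4.66 FPKM in FI, against 0.267 and 1.65 in TI, and the sucrose synthase gene Sus5 had 6.13 and 4.87 in FI, against 0.424 and 1.96 in TI. In both, TI replicate 2 again lay between TI replicate 1 and FI. Of the remaining genes with FPKM, Sut2 (sut4 in RefSeq) had 26.3 and 21.4 in FI and 35.4 and 34.4 in TI, and Invcw2, a cell wall invertase that splits exported sucrose, had 7.76 and 7.25 in FI and 0 and 3.57 in TI.

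**Figure D5:**
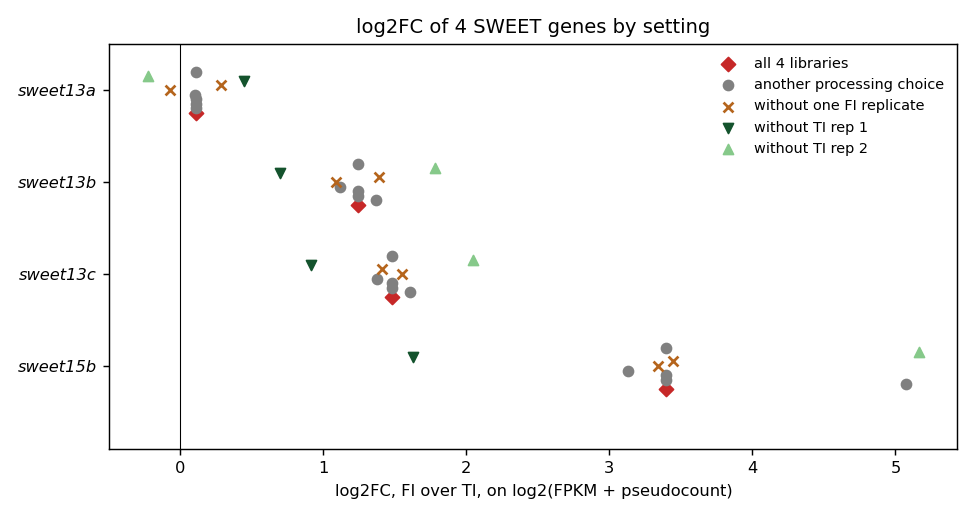
log2FC of FI over TI of 4 SWEET genes under each processing choice on FPKM and without each library in turn. The values of sweet13b, sweet13c and sweet15b stay above 0 and are lowest without TI replicate 1 (0.70, 0.91 and 1.62), while sweet13a falls on both sides of 0.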

How the data were processed

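Reads of 2 FI and 2 TI libraries were cleaned by the authors with Trimmomatic. The deposited FPKM values, per gene, come from CLC Genomics Workbench and B73 RefGen_v4, according to the authors' methods. The deposited raw counts, per transcript, carry version 3 names, and the submitters' processing notes name B73 RefGen v3 and TopHat2 2.0.13. The counting tool is not given in the sources used here. Groups and replicate numbers follow the sample labels. The count table calls one tissue floral stem, which was taken as FI because it is the only tissue beside the top internode. Fold changes and FDR deposited by the authors were not used.

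FPKM were tested as log2(FPKM + 1), which understates changes of low genes, in limma 3.58.1, keeping genes whose mean was at least 1. Counts summed per gene entered edgeR 4.0.16 (quasi-likelihood) after filterByExpr and TMM, in R 4.3.3. FDR is Benjamini-Hochberg over all genes tested. Standard errors in edgeR were derived from the F statistic. Whole fragments were recovered from FPKM as common multiples (24149 of 24149 genes above 0 in at least 2 libraries, tolerance 0.0001). The smallest multiple that fitted was taken, so the true number of a gene can be higher than the number given. Genes above 0 in 1 library were set to 1 fragment. Alternatives were the edgeR exact test (tagwise dispersion), DESeq2 1.42.0, other filters, a pseudocount of 0.1, quantile normalization, a replicate block and each library left out. DESeq2, the fit without filter and the left-out libraries on fragments were chosen after seeing the data. The scripts were tested on simulated data. Named genes are the 5 members, genes of the sugar lists with p under 0.05 or among the 3 highest of a list, and the 3 nearest named genes. The nearest genes were to be named from RefSeq, which holds no version 4 identifiers, so the supplementary tables' names were used. The members and lists were chosen with earlier results of these data known. Marker symbols without a match or a row in the count table were not analysed here, and 1 marker of the inflorescence list is not reported here and is left out of its sums.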

Additional observations from a re-analysis of the deposited data

How the results depend on the processing

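Under all alternatives run on FPKM or fragments, sweet13b, sweet13c and sweet15b kept a log2FC above 0. For the fits on FPKM with a library left out, this sign was fixed in advance, because their tissues did not overlap. With each library left out, the log2FC lay between 0.70 and 1.97 for sweet13b, between 0.91 and 2.21 for sweet13c, between 1.62 and 9.47 for sweet15b and between −0.28 and 0.44 for sweet13a, and on counts between 1.09 and 7.44 for sweet15b. The upper values of sweet15b rest on a TI library at 0 and depend on the prior count. The sign of sweet13a turned without FI replicate 1 (−0.07) and without TI replicate 2 (−0.22), and on fragments likewise (−0.20 and −0.28). Leaving out TI replicate 2 put sweet13b at 1.97 and sweet13c at 2.21 in log2FC when fragments were fitted. From FPKM the values were 1.78, 2.05 and 5.16 for sweet13b, sweet13c and sweet15b. From counts sweet15b reached 7.44 with the same library left out. All of these fits rest on a lone TI library. The number of genes with an FDR under 0.05 was 0 with limma and ran from 0 to 6240 with each library left out (5013 by limma without TI replicate 2 and 242 on fragments without TI replicate 1). On fragments it was 903 by the exact test, 452 by DESeq2 and 8 without a filter. On counts it was 0 by the quasi-likelihood test, 719 by the exact test, 324 by DESeq2, 477 without a filter and 0 to 4072 with each library left out. The cause was not tested. With the pseudocount of 0.1, sweet15b had a log2FC of 5.08 (FDR = 0.380 by limma). Quantile normalization moved the median log2FC of all genes by −0.11, and sweet13a had 0.10 under it. Tested without a filter, sweet4c had a log2FC of 0.41 on FPKM and 1.24 on fragments (FDR = 0.345 by limma and 0.607 by edgeR).

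The replicate numbers are not said to pair the libraries, and same-numbered libraries deviated together with a correlation of 0.17 on FPKM and 0.16 on counts. With a replicate block 0 genes had an FDR under 0.05 in either table, the log2FC on FPKM stayed 0.11 for sweet13a, 1.24 for sweet13b, 1.48 for sweet13c and 3.39 for sweet15b, and that of sweet15b on counts was 2.44 (FDR = 0.353 by edgeR's quasi-likelihood test). Depth limits sweet4c, with 9 fragments in all, and the TI values of sweet13b, sweet13c and sweet15b, each with 40 fragments or fewer per library.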

Other observations

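Genes as high in FI as sweet15b and absent from TI replicate 1 were counted over the whole table, with a limit of 30 FPKM chosen after the values of sweet15b were seen. Of 2356 genes with at least 30 FPKM in both FI libraries, 29 were listed at 0 in TI replicate 1, sweet15b among them. All 29 were above 0 in TI replicate 2, and none of the 2356 genes was at 0 there.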
